A study of Mus musculus with 8 samples.

Results

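The 9 genes described here make the enzymes and the carrier protein of ovarian steroid synthesis (*Star*, *Cyp11a1*, *Cyp17a1*, *Hsd3b1*, *Hsd17b1*, *Hsd17b7*, *Cyp19a1*, *Srd5a1* and *Akr1c18*). They were chosen by symbol from the 45583 gene symbols of the deposited read counts, and no measured value entered the choice. RNA sequencing was performed on ovaries of female C57/Bl6 mice at 3 weeks of age, 4 of them WT and 4 GOAT KO, with 1 library per animal. GOAT, the product of *Mboat4*, is the acyltransferase that attaches the fatty acid to ghrelin, and the GOAT KO mice lack it in the whole body, so that ovary and brain or gut cannot be told apart as the site of any difference. WT and GOAT KO mice were littermates from heterozygous parents and carried no other stated allele or treatment. The libraries are named by group and animal number (WT 1118, 1119, 1120 and 1121; GOAT KO 1139, 1140, 1141 and 1146).

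Ovarian steroids are made by cooperation between cell types of the follicle. Theca cells, driven by luteinizing hormone, bring cholesterol into the mitochondrion and turn it into androgens, and granulosa cells, driven by follicle stimulating hormone, convert these androgens into estrogens. In juvenile ovaries, follicles grow but do not yet ovulate, and no corpora lutea, the progesterone-making remains of ovulated follicles, have formed.

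The counts on genes summed to between 16147216 and 19481798 per library. *Mboat4* had 1, 1, 1 and 3 counts in the libraries labelled WT and 5, 7, 7 and 8 in those labelled GOAT KO. This is the opposite of a loss of transcript, at a depth of a few reads, and the deleted part of the gene is not given in the sources used here, so each direction below rests on the labels. On a scaling plot of the libraries GOAT KO 1139 stood apart, at 1.21 on the first dimension, where WT 1120 lay at 0.17 and the others between -0.47 and -0.07. On the second dimension WT 1118 was farthest out, at 0.76, and WT 1120 lay at -0.43, beside GOAT KO 1141 and 1146 (-0.41 and -0.46). In the original work 1 library of each group was left out without being named. Each comparison here was also made without GOAT KO 1139 and WT 1120, a choice that came from earlier work on these data (the 6 libraries below). These are also the libraries with the most *Star* and *Cyp17a1* RNA in their groups, so leaving them out removes extreme values of the genes under study, and the calls that follow are not independent support.

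Compared per length, as CPM per kilobase of exon (CPM, counts scaled to the size of the library, here with TMM factors), *Hsd3b1* was the most abundant of the 9, with a median of 1131 over the 8 libraries (range 894 to 1231). *Hsd17b1* followed at a median of 271 (192 to 318) and *Cyp11a1* at 66.3 (41.0 to 98.3). The ranges of these 3 genes did not overlap. *Cyp17a1* had a median of 20.9 but reached 217, *Srd5a1* 10.4 and *Hsd17b7* 8.57. Each of these overlapped its neighbours in the order. *Star* (median 3.49), *Cyp19a1* (3.03) and *Akr1c18* (1.18) were lowest, and *Star* lay above *Cyp19a1* in 5 of 8 libraries. *Hsd3b1*, for progesterone synthesis, and *Hsd17b1*, for estradiol synthesis, were thus high, while the cholesterol carrier and aromatase, the enzyme that makes estrogens, were low in most libraries.

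**Figure D1:**
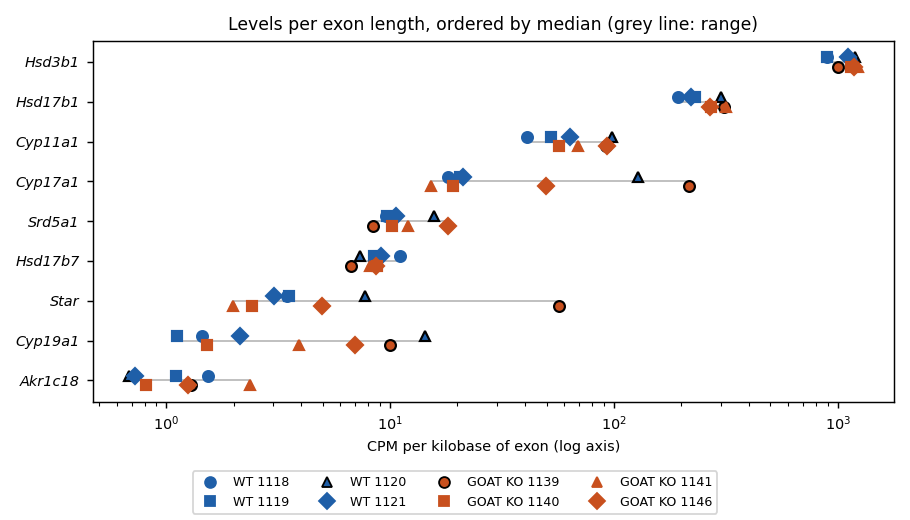
Level of each gene in each of the 8 libraries, as CPM per kilobase of annotated exon on a log axis, ordered by the median. Blue symbols are WT and orange symbols GOAT KO, black outlines mark WT 1120 and GOAT KO 1139, and grey lines join lowest and highest values. *Hsd3b1*, *Hsd17b1* and *Cyp11a1* form separate ranges, and *Star* spans 1.98 to 56.8.

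The groups were compared with edgeR's quasi-likelihood test over 16601 genes. A gene was called where p before adjustment was under 0.05 and the log2 fold change was beyond 0.3 in either direction, which was the rule of the pathway analysis that went with these data. All 9 genes passed the filter on low counts. With all 8 libraries 1 of the 9 was called, *Hsd17b1*, which was higher in GOAT KO, where 2.85% of all genes tested were called (1.58% as higher). At a stricter fold change of 0.5, none of the 9 was called, where 1.67% of all genes were. No gene of the 9 passed after adjustment over all genes, where 0.0241% did (Benjamini-Hochberg, lowest adjusted p = 0.983 in edgeR). The log2 fold change, GOAT KO over WT, was above 0 for 8 of the 9 with a median of 0.28, and the median over all genes was 0.00. None of the 9 had groups that did not overlap, against 2.92% of all genes.

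Without WT 1120 and GOAT KO 1139, 4 of the 9 were called and all 4 were higher in GOAT KO (*Cyp11a1*, *Hsd17b1*, *Cyp19a1* and *Srd5a1*), where 4.77% of 16641 genes were called (2.55% as higher). At 0.5, 1 of the 9 was called (*Cyp19a1*), where 2.39% of all genes were. None passed adjustment, where 0.12% did (lowest adjusted p = 0.185 in edgeR), while DESeq2 on the same 6 libraries gave *Hsd17b1* an adjusted p = 0.0026 (its other alternatives gave 0.181 to 1.00). The median log2 fold change was 0.43. The groups of *Hsd3b1* and *Hsd17b1* did not overlap in this set, 2 of 9, against 15.7% of all genes.

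**Figure D2:**
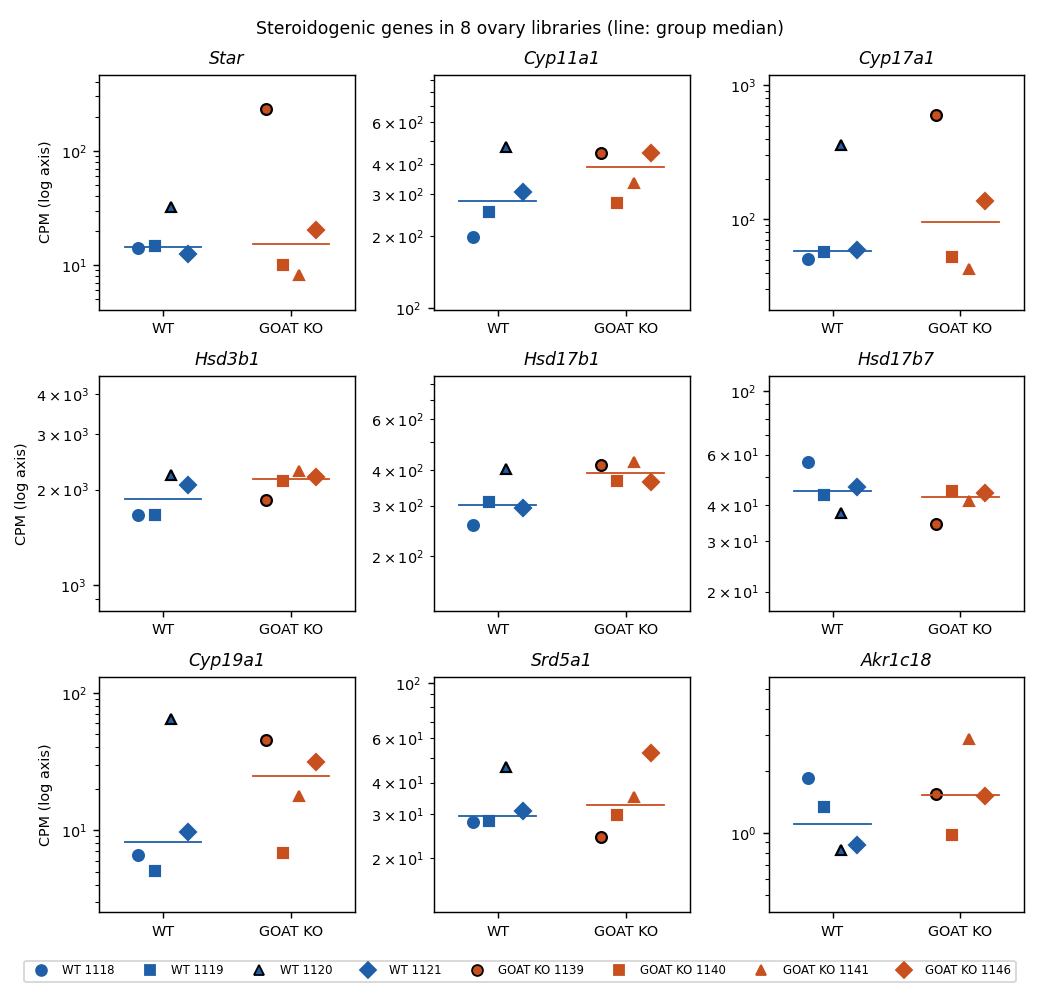
CPM of each of the 9 genes in each library, on log axes, for WT (blue) and GOAT KO (orange), with WT 1120 and GOAT KO 1139 outlined in black and lines at the group medians. *Star*, *Cyp17a1* and *Cyp19a1* vary by 12.9-fold to 28.7-fold between libraries, and *Hsd3b1* by 1.38-fold.

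*Star* (chr8:25806555-25815982, plus strand, GRCm38) encodes the protein that carries cholesterol to the inner mitochondrial membrane. It had 14.2, 14.6, 31.9 and 12.4 CPM in WT 1118, 1119, 1120 and 1121. The GOAT KO libraries had 233.5 CPM in 1139, 9.90 in 1140, 8.14 in 1141 and 20.5 in 1146. One GOAT KO library was thus more than 7 times above any other, while 2 of the others lay below every WT library. The group means of 18.3 ± 9.16 CPM in the WT libraries and 68.0 ± 110.5 in GOAT KO (SD, n = 4) overlapped. The log2 fold change of 1.89 ± 0.95 (SE) did not pass the test (adjusted p = 0.983 in edgeR). It was -0.10 ± 0.27 without WT 1120 and GOAT KO 1139, and -0.52 without GOAT KO 1139 alone. It met the call rule at 2.25, 2.26 and 2.19 when GOAT KO 1140, 1141 or 1146 was left out, and at 1.88 with no filter on low counts. In whole ovaries, here and for every gene below, fewer cells of a type and less RNA per cell cannot be told apart.

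*Cyp11a1* (chr9:58006411-58027023, plus strand) encodes the enzyme that cleaves the cholesterol side chain to give pregnenolone, the precursor of all steroids. It had 197, 251.5, 472 and 306 CPM in the WT libraries and 443, 274, 331 and 446 in GOAT KO, in the order of the animal numbers. WT 1120 was the highest of the 8 libraries and WT 1118 the lowest, and the groups overlapped. The log2 fold change of 0.28 ± 0.24 did not pass. In the 6 libraries it was 0.48 ± 0.18 and met the call rule (adjusted p = 0.470 in edgeR), as did 0.57 without WT 1120 alone, while it was 0.12 without WT 1118. DESeq2 on the 6 libraries did not call it. Its exons share 145 bases with those of Gm17322, a transcript on the same strand, and how the counting treated such reads is not given in the sources used here.

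*Cyp17a1* (chr19:46667165-46673172, minus strand) encodes the hydroxylase and lyase that commits steroids to androgens. It had 50.2, 56.8, 355 and 58.7 CPM in the WT libraries and 601, 52.7, 42.4 and 138 in GOAT KO. WT 1120 and GOAT KO 1139 stood far above the rest of their groups, and GOAT KO 1146 was the third highest. GOAT KO over WT, the log2 fold change was 0.68 ± 0.87 over all 8 libraries and 0.48 ± 0.34 without WT 1120 and GOAT KO 1139, and passed in neither set. It ranged with a single library left out from -0.75 without GOAT KO 1139 to 1.91 without WT 1120, where it met the call rule (adjusted p = 0.455 in edgeR).

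*Hsd3b1* (chr3:98852194-98859794, minus strand) encodes the dehydrogenase and isomerase that makes progesterone from pregnenolone. It had 1669, 1658, 2226 and 2065 CPM in the WT libraries and 1851, 2131, 2284 and 2186 in GOAT KO. The groups overlapped through WT 1120 and WT 1121. Its log2 fold change of 0.15 ± 0.11 did not pass. In the 6 libraries it was 0.29 ± 0.09 (adjusted p = 0.403 in edgeR), just short of the fold change that the call asks for. All 3 of the GOAT KO libraries then lay above all 3 of the WT libraries.

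*Hsd17b1* (chr11:101078411-101080527, plus strand) encodes the granulosa cell enzyme that reduces estrone to estradiol. It had 258, 309, 403 and 295 CPM in the WT libraries and 415.5, 365, 425.5 and 362 in GOAT KO. WT 1120 lay inside the GOAT KO range and the other 3 WT libraries below it. The means were 316 ± 61.8 CPM in the WT libraries and 392 ± 33.4 in GOAT KO (SD, n = 4). The log2 fold change of 0.31 ± 0.12 met the call rule (adjusted p = 0.983 in edgeR). It no longer did so without WT 1118 (0.22), WT 1119 (0.30), WT 1121 (0.28), GOAT KO 1139 (0.28) or GOAT KO 1141 (0.26), and was at most 0.44 with any 1 library left out. In the 6 libraries it was 0.42 ± 0.09 (adjusted p = 0.185 in edgeR).

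*Hsd17b7* (chr1:169949535-169969241, minus strand) encodes another reductase of estrone that also takes part in cholesterol synthesis. It was the only one of the 9 with a log2 fold change below 0 over all 8 libraries, at -0.16 ± 0.12, and did not pass in either set. It had 56.4, 43.4, 37.7 and 46.5 CPM in the WT libraries and 34.3, 44.8, 41.5 and 44.1 in GOAT KO. WT 1120 and GOAT KO 1139, the libraries with the most *Cyp17a1*, had the least *Hsd17b7* of their groups. The fold change was -0.05 without WT 1118 and -0.25 without WT 1120.

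*Cyp19a1* (chr9:54165937-54268110, minus strand) encodes aromatase. It had 6.57, 5.06, 65.0 and 9.70 CPM in the WT libraries and 45.2, 6.84, 17.7 and 31.6 in GOAT KO. WT 1120 was the highest of all libraries, and apart from it the WT libraries lay below 3 of the 4 GOAT KO libraries. Over all 8 libraries the log2 fold change was 0.22 ± 0.77 (adjusted p = 0.986 in edgeR). It met the call rule at 1.39 ± 0.43 without WT 1120 and GOAT KO 1139 (adjusted p = 0.422 in edgeR) and at 1.82 without WT 1120 alone. Without WT 1118, WT 1119, WT 1121 or GOAT KO 1139 it was below 0, down to -0.21 in the last case. Sign and size thus rested on which libraries were included, and WT 1120 alone set the WT mean of 21.6 ± 29.0 CPM against 7.10 ± 2.34 in the other 3 (SD, n = 3).

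*Cyp19a1* can start at several first exons that are used in different tissues. RefSeq (GRCm38.p6) gives it 3 starts, and the windows around them (250 bases before to 50 after the start) are shown because splice reads into a distant first exon would mark the use of its start. Capitals mark the letters TATAAA (known as the TATA box, on either strand, held by 13.6% of 32851 promoter windows of this length) and AAGGNCA (the half-site of NR5A receptors, on either strand, held by 20.3%).

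Cyp19a1 start nearest to the coding exons, chr9:54193694-54193993, minus strand: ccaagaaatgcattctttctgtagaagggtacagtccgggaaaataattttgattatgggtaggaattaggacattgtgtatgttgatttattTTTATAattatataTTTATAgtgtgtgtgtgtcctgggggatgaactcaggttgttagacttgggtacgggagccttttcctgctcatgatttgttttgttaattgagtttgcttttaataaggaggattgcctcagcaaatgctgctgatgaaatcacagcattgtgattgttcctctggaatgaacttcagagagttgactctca
Cyp19a1 middle start, chr9:54228865-54229164, minus strand: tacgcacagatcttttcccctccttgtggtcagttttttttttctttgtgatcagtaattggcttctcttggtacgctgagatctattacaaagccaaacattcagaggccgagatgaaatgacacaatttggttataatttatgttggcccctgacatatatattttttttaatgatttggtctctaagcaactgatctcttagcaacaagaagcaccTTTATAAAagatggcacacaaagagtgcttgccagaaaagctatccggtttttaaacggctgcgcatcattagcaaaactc
Cyp19a1 farthest start, chr9:54268115-54268414, minus strand: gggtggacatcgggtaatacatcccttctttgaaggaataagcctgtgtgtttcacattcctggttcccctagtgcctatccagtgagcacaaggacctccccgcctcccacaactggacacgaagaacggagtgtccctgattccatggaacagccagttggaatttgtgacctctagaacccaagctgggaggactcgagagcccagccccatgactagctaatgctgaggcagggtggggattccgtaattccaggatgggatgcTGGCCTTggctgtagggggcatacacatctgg

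The nearest window held 2 TATA matches, 157 and 143 bases before its start and on the opposite strand. The middle window held overlapping TATA matches on both strands, 31 and 29 bases before the start. The farthest held no TATA match and 1 NR5A half-site, 18 bases after the start on the opposite strand. These matches are descriptions of the letters and no evidence of binding. The first coding-side exon ends at 54193522 in the GENCODE annotation, 221 bases from the nearest RefSeq start. Splice reads that left this exon numbered 1, 2, 4 and 4 in WT and 4, 0, 5 and 0 in GOAT KO, 20 in all. The annotation also gives most of this exon to a transcript from the farthest start, so these reads do not mark the nearest start. No read in any library joined a first exon farther upstream, and a count of 0 over all libraries allows up to 3 reads, a limit that covers counting error only. Use of the distant starts was not detectable with so few reads.

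*Srd5a1* (chr13:69573449-69611442, minus strand) encodes a steroid reductase that makes dihydrotestosterone and other reduced steroids. It had 27.9, 28.2, 45.9 and 30.8 CPM in the WT libraries and 24.3, 29.7, 35.1 and 52.6 in GOAT KO. The groups overlapped over most of their range. Its log2 fold change was 0.09 ± 0.23 over all 8 libraries and -0.16 without GOAT KO 1146. It met the call rule in the 6 libraries, at 0.43 ± 0.17 (adjusted p = 0.501 in edgeR). Its exons share 476 bases with other genes, among them *Nsun2* on the opposite strand, and use of the strand in counting is not given in the sources used here.

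*Akr1c18* (chr13:4132615-4150654, minus strand) encodes the enzyme that inactivates progesterone when corpora lutea regress. It had 30, 24, 15 and 16 counts in WT and 26, 16, 56 and 26 in GOAT KO, which is 0.82 to 1.86 CPM and 0.98 to 2.87 CPM. The groups overlapped, and the log2 fold change of 0.53 ± 0.36, which did not pass, rested on few reads. Left out alone, GOAT KO 1141 took it to 0.15.

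**Figure D3:**
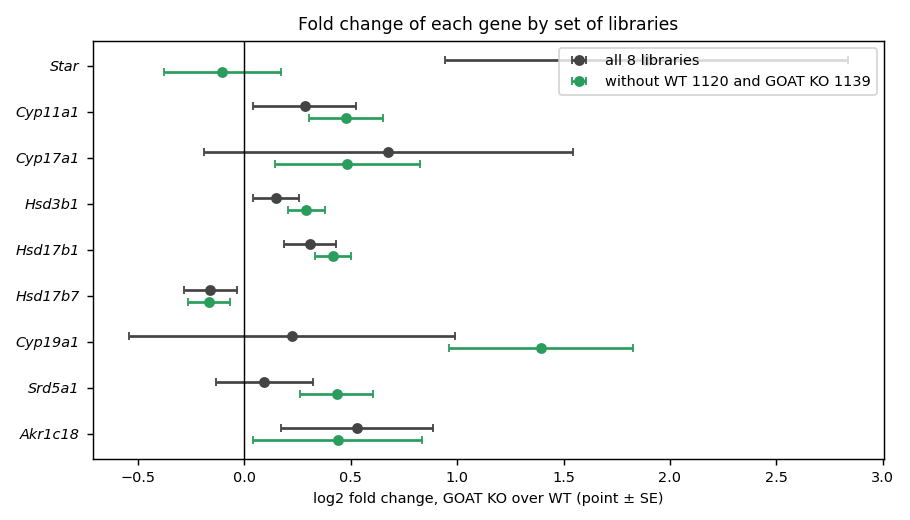
Log2 fold change of each gene, GOAT KO over WT, with its SE, over all 8 libraries (grey) and without WT 1120 and GOAT KO 1139 (green). *Star* moves from 1.89 to -0.10 and *Cyp19a1* from 0.22 to 1.39, while *Hsd17b1* (0.31 and 0.42) and *Hsd17b7* (-0.16 and -0.17) differ less between these sets.

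The spread within groups was a feature of its own. The SD of log2 CPM within groups was 1.63 for *Star*, 1.56 for *Cyp17a1* and 1.44 for *Cyp19a1*, at the 99.96th, 99.92nd and 99.90th percentile of the genes tested, where the median gene had 0.15. *Akr1c18*, *Cyp11a1* and *Srd5a1* lay at the 96.8th, 93.5th and 91.2nd percentile. The percentiles were taken over genes of all levels, and *Akr1c18*, at 15 to 56 counts per library, carries more counting error than the others. *Hsd3b1*, *Hsd17b1* and *Hsd17b7* lay at the 58.9th, 66.5th and 67.0th, with SDs from 0.18 to 0.21. *Star*, *Cyp17a1* and *Cyp19a1* thus varied far more between animals of 1 genotype than *Hsd3b1*, *Hsd17b1* and *Hsd17b7*. Much of this spread rested on WT 1120 and GOAT KO 1139, without which the SDs of *Star*, *Cyp17a1* and *Cyp19a1* were 0.50, 0.64 and 0.85 (median gene 0.13), at the 96.5th, 98.7th and 99.7th percentile. Within WT the SD fell from 0.62 to 0.13 for *Star* and from 1.35 to 0.11 for *Cyp17a1* without WT 1120.

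Theca genes (*Star* and *Cyp17a1*) were then set against granulosa genes (*Hsd17b1* and *Cyp19a1*), as the mean log2 CPM of the first pair minus that of the second in each library. This difference was -0.63, -0.47, -0.60 and -0.99 in WT. It was 1.45, -1.13, -2.22 and -1.01 in GOAT KO. The WT libraries were close together, and GOAT KO held both the highest and the lowest of the 8 libraries. The group means were -0.67 ± 0.22 in WT and -0.73 ± 1.55 in GOAT KO (SD, n = 4), a difference of -0.05 that is small beside the spread. In the 6 libraries they were -0.69 ± 0.26 and -1.45 ± 0.66 (SD, n = 3). Each of the 3 remaining GOAT KO libraries lay below each of the 3 WT libraries, but GOAT KO 1146 (-1.01) only just below WT 1121 (-0.99). In this set the groups of 15.7% of all genes did not overlap. In WT 1120 both pairs were high together, with 6.74 for the theca pair and 7.34 for the granulosa pair, against at most 4.85 and 5.75 in the other WT libraries. In GOAT KO 1139 the theca pair, at 8.55, exceeded the granulosa pair, at 7.10, and in GOAT KO 1141 the theca pair was the lowest of all libraries, at 4.23.

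Across the 8 libraries log2 CPM of *Star* and *Cyp17a1* rose together, with a Pearson r of 0.91 (exact permutation p = 0.00027, adjusted over the 6 pairs of genes p = 0.0016) and a Spearman rho of 0.88 (exact permutation p = 0.0072, adjusted p = 0.043). Without the libraries farthest from the median of *Star*, which were WT 1120 and GOAT KO 1139, r was 0.83 (exact permutation p = 0.022) and rho 0.71. In these 6 libraries GOAT KO 1146 was the highest for both genes. *Cyp17a1* and *Cyp19a1* had an r of 0.85 (exact permutation p = 0.0078, adjusted p = 0.023) and a rho of 0.67 (exact permutation p = 0.083, adjusted p = 0.19). Without the same libraries r was 0.64 (exact permutation p = 0.17), so this relation rested on them. The 4 other pairs did not pass in the two-sided tests, with r from 0.38 to 0.72. For the granulosa pair *Hsd17b1* and *Cyp19a1* r was 0.72 (exact permutation p = 0.051, adjusted p = 0.077) and rho 0.64 (exact permutation p = 0.096). For *Star* and *Hsd17b1* r changed from 0.38 to -0.44 without WT 1120 and GOAT KO 1139. Within WT or GOAT KO alone, 4 libraries are too few for a correlation.

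**Figure D4:**
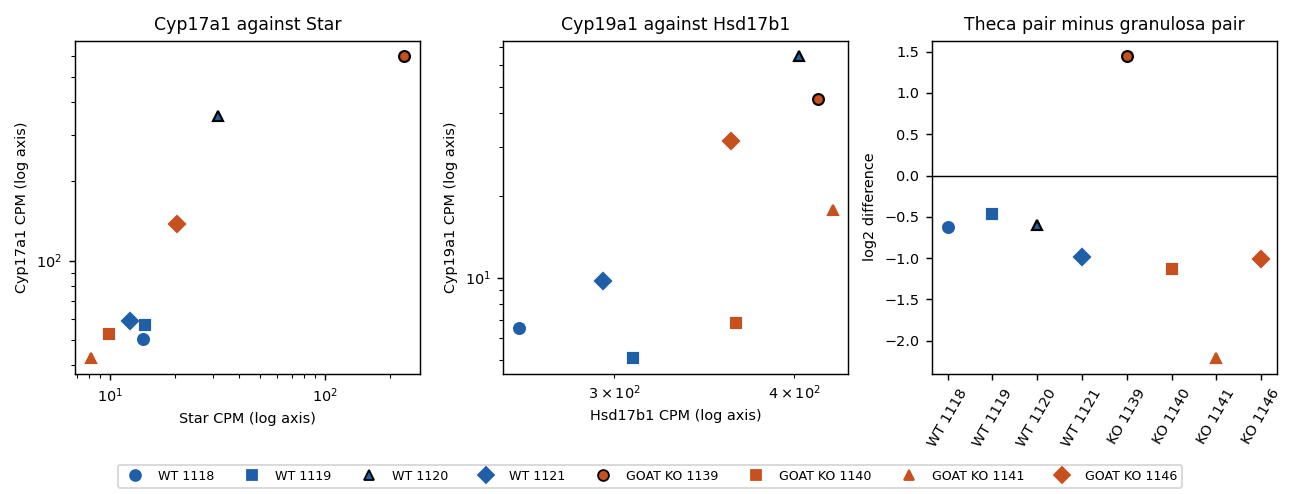
Left, *Cyp17a1* against *Star*, and middle, *Cyp19a1* against *Hsd17b1*, as CPM on log axes with 1 symbol per library (WT blue, GOAT KO orange, WT 1120 and GOAT KO 1139 outlined). Right, mean log2 CPM of *Star* and *Cyp17a1* minus that of *Hsd17b1* and *Cyp19a1* in each library, from -2.22 in GOAT KO 1141 to 1.45 in GOAT KO 1139.

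The genes whose log2 CPM was most like that of each of these 4, by Pearson r over 8 libraries among 12364 genes with a mean of at least 5 CPM, were named without a test. For *Star* they were *Acaca*, *Crem*, *Abhd2* and *Fasn* (r 0.97 to 0.98), among which *Acaca* and *Fasn* encode enzymes of fatty acid synthesis and *Crem* a factor of the cyclic AMP response. Each of these was highest in GOAT KO 1139, and r fell to between 0.36 and 0.68 without WT 1120 and GOAT KO 1139. For *Cyp17a1* they were *Got1*, *Fads1*, *Tpm4* and *Pafah1b2*, with r of 0.92 to 0.96 without those libraries. For *Hsd17b1* they were *Hsd3b7*, *Sec13*, *Aldh2* and *Anapc11*, with r of 0.97 to 0.99 without them. For *Cyp19a1* they were *Ralb*, *Pla2g6*, *Gch1* and *P4ha2*, with r of 0.94 to 0.97 without them. *Gch1*, which encodes the first enzyme of tetrahydrobiopterin synthesis, had 21.4, 23.3, 56.1 and 27.3 CPM in the WT libraries and 50.8, 23.0, 30.8 and 39.3 in GOAT KO.

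The partners of the steroid enzymes were examined as lists. Of 12 genes for electron donors and cholesterol entry, all were tested and none was called in either set, where 2.85% and 4.77% of all genes were, with a median log2 fold change of 0.09 over all 8 libraries and 0.04 in the 6. *Fdx1*, the ferredoxin that passes electrons to the side chain cleavage enzyme, had 31.3, 45.7, 99.5 and 42.7 CPM in the WT libraries and 160, 42.5, 41.3 and 64.4 in GOAT KO. It was highest in the same libraries as *Cyp17a1*, as was *Fdxr*, its reductase, with 188 CPM in GOAT KO 1139 and 224 in WT 1120 against 112 to 147 elsewhere. *Por*, the electron donor of the microsomal enzymes, had 117 CPM in GOAT KO 1139 and 55.6 to 69.3 in the other libraries. The mean differences did not pass the test, with log2 fold changes of 0.49 ± 0.46 for *Fdx1*, 0.03 ± 0.20 for *Fdxr* and 0.22 ± 0.22 for *Por*.

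Among relatives of the 9, again beside 2.85% of all genes called with all 8 libraries (1.58% as higher), 2 of 6 paralogs of *Hsd3b1* were tested and none was called. *Hsd3b6*, one of these paralogs, had at most 1.4 CPM. Of 10 genes of the family of *Hsd17b1*, 7 were tested and none was called. Of 12 other steroid reductases, 7 were tested and 1 was called, *Akr1c21*, higher in GOAT KO by 0.81 ± 0.30 on the log2 scale at 0.31 to 1.34 CPM (adjusted p = 0.983 in edgeR). *Akr1c14*, an oxidoreductase of dihydrosteroids, had 640, 700, 460 and 742 CPM in the WT libraries and 482, 829, 802.5 and 712 in GOAT KO and was thus lowest in WT 1120 and GOAT KO 1139, at a log2 fold change of 0.15 ± 0.18. Of 10 genes of steroid conjugation and breakdown, 3 were tested and none was called.

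Of 22 regulators of steroidogenic genes, 1 was called with all 8 libraries and 2 without WT 1120 and GOAT KO 1139, where the background was 2.85% and 4.77%, and their median log2 fold change was -0.06 and -0.05. *Fshr*, the receptor for follicle stimulating hormone on granulosa cells, was higher in GOAT KO in both sets, by 0.47 ± 0.16 and by 0.68 ± 0.13 on the log2 scale (adjusted p = 0.983 and 0.144 in edgeR). *Prkar2b*, a regulatory subunit of protein kinase A, was higher in the smaller set only, by 0.52 ± 0.10 (adjusted p = 0.163 in edgeR), with 0.17 ± 0.23 over all libraries. *Nr5a1*, the master regulator of the steroidogenic genes, changed by -0.09 ± 0.10 and *Lhcgr*, the receptor for luteinizing hormone, by -0.06 ± 0.16, and neither passed the test.

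Markers of cell types were counted beside these results, where 2.85% of all genes were called with all 8 libraries and 4.77% in the 6. The marker lists were chosen with earlier results of these data known, so their counts of called genes are not independent support. Of 12 theca markers 10 were tested, and none was called with all 8 libraries (median log2 fold change 0.13). In the 6 libraries *Aldh1a1* and *Mgarp* were called as higher, 2 of 10 beside 2.55% of all genes, and the median was 0.07. The hedgehog pathway genes *Gli1* and *Ptch1* of this list had log2 fold changes of -0.28 and -0.12 in the 6 libraries and were not called. *Insl3*, the defining hormone of theca cells, had only 2 to 12 counts per library. Summed, the theca markers had 1538 to 1839 CPM in the WT libraries and 1709 to 2138 in GOAT KO, without the differences of *Star* and *Cyp17a1* between libraries. Of 15 granulosa markers, 7 were called as higher in GOAT KO with all libraries (1.58% of all genes) and 8 in the smaller set (2.55%) (median log2 fold change 0.31 and 0.34, *Fshr*, *Inhba*, *Fst*, *Nppc*, *Grem1*, *Fgfr3* and *Nap1l5* in both, and *Inhbb* in the smaller set). *Amh* and *Foxl2*, also granulosa genes of the list, were not called and had log2 fold changes of -0.21 and -0.17 over all 8 libraries and -0.21 and -0.22 in the 6. The sum of the list was 9165 to 11378 CPM in the WT libraries and 11066 to 11798 in GOAT KO. This sum moved with *Hsd17b1*, and its part in the difference of *Hsd17b1* was not tested. Luteal markers summed to 203 to 254 CPM over the 8 libraries, and 1 of 9 tested, *Cited4*, was called as lower in both sets. Of 10 oocyte markers 1 was called, *Figla*, with a log2 fold change of 0.46 over all 8 libraries, and it was not called in the 6, at 0.43. Of 7 leukocyte markers tested 2 were called as lower in both sets, *Adgre1* and *Lyz2*, and of 5 oviduct markers none was called.

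Fat cell markers summed to 652 CPM in GOAT KO 1139 and to between 15.4 and 38.0 CPM in the other libraries, and all 6 tested were called with all libraries, against 1 (*Plin1*) without WT 1120 and GOAT KO 1139. *Adipoq* had 96.7 CPM there and at most 3.0 elsewhere. Among adrenal markers, *Cyp11b1* had 7 counts in GOAT KO 1139 and 0 to 4 in the other libraries, *Cyp11b2* 1 count and 0, *Cyp21a1* 4 counts in both WT 1120 and GOAT KO 1139 and 0 elsewhere, and *Mc2r* 21 counts and 0 to 4. *Cyp11b1*, *Cyp11b2* and *Mc2r* thus each had their most counts, few as they were, in GOAT KO 1139, the library with 3903 counts of *Star*. The summed adrenal list, which holds *Mrap* and *Akr1b7*, genes also used elsewhere, was 25.5 CPM in GOAT KO 1139, 17.4 in WT 1120 and 6.0 to 9.3 in the others. The part of fat or adrenal cells in the levels of *Star* was not tested.

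Splice junction reads of the 9 genes were a second readout of the same libraries, scaled to the total junction reads of the library in the way of CPM (RPM below). *Star* had 15.5, 14.5, 28.3 and 11.5 RPM in WT and 267, 3.01, 4.63 and 23.4 in GOAT KO. *Cyp17a1* had 63.8, 61.5, 426 and 58.7 in WT and 698, 62.1, 37.7 and 165 in GOAT KO. *Cyp19a1* had 4.64, 3.72, 77.3 and 11.5 in WT and 55.5, 4.14, 12.97 and 33.7 in GOAT KO. For these 3 genes the same libraries were high as in the counts. The values of *Cyp17a1* are short of annotated junctions. The junction chr19:46669362-46669721 is listed at 0 in all 4 WT libraries and in GOAT KO 1141 and has 84, 8 and 22 reads in GOAT KO 1139, 1140 and 1146. In WT 1120 the junctions on either side of it have 110 and 137 reads. In WT 1118 these neighbours (chr19:46668842-46669145 and chr19:46669809-46670537) are listed at 0, with 13 to 212 and 10 to 212 reads elsewhere. *Star* also has annotated junctions listed at 0, among them chr8:25809935-25810944 in GOAT KO 1140, with 1 to 201 reads elsewhere. *Hsd17b1* had 167, 296, 338 and 261 in WT and 357, 350, 443 and 360 in GOAT KO, and WT 1120 and GOAT KO 1139 lack the reads of 1 annotated junction (chr11:101078794-101078928) that is listed at 0 there and has a median of 106 reads. *Hsd3b1* went the other way from its counts, with 379 ± 64.3 in WT and 299 ± 46.1 in GOAT KO (SD, n = 4). This rested in part on single junctions. The junction chr3:98856159-98857819 had 837 reads in WT 1119 and 155 to 335 elsewhere, and chr3:98858027-98858151 had 517 in WT 1118 and 259 to 434 elsewhere. At chr3:98853364-98855993 the reads were 186, 236, 299 and 296 in WT and 218, 257, 345 and 285 in GOAT KO. *Hsd3b1* gave 2.04 to 4.58 junction reads per 100 counts, against 21.4 to 27.8 for *Cyp11a1*, of which 2 junctions are listed at 0 in WT 1118. None of these junction values was tested.

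**Figure D5:**
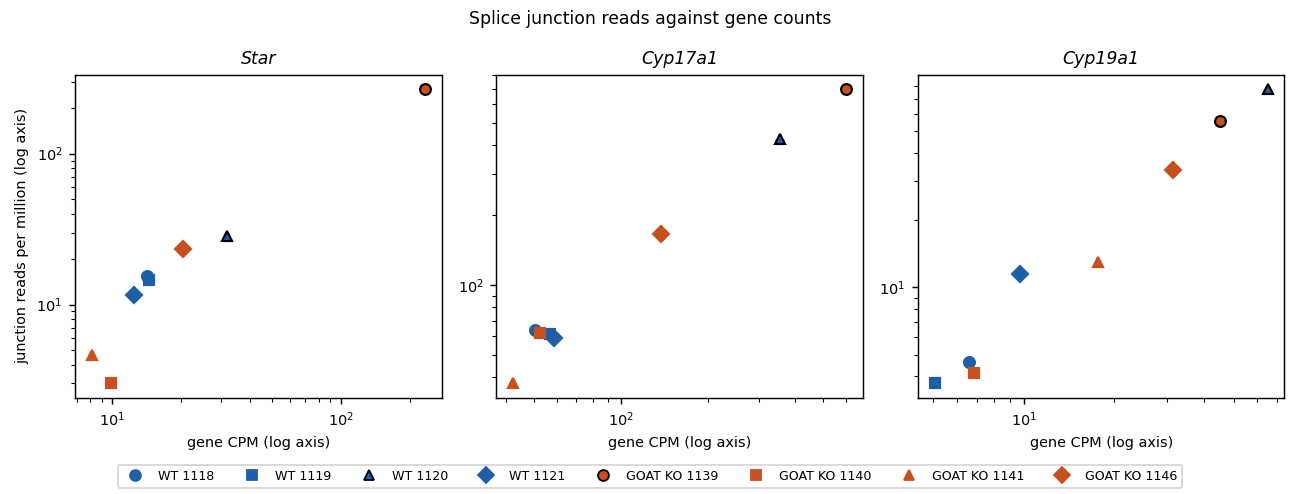
Reads on annotated splice junctions, in RPM of all junction reads of the library, against CPM of the gene, on log axes, for *Star*, *Cyp17a1* and *Cyp19a1*, with 1 symbol per library (WT blue, GOAT KO orange, WT 1120 and GOAT KO 1139 outlined). The libraries with the highest CPM have the most junction reads, up to 698 RPM for *Cyp17a1* in GOAT KO 1139.

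For *Akr1c18* the junction reads could not be used. A single junction (chr13:4142250-4143217) had 24 to 222 reads per library, more than most libraries had counts on the gene, while all other annotated junctions of the gene had 32 reads in all 8 libraries. Of the 50 bases around this junction in the *Akr1c18* transcript, 49 are also found in a transcript of *Akr1cl*, a paralog with 2032 to 2578 CPM. How many of these reads came from *Akr1cl* was not tested. In the transcripts that the authors assembled per library, an annotated *Star* transcript was found only in GOAT KO 1139 and an annotated *Cyp19a1* transcript only in WT 1120 and GOAT KO 1139, while *Cyp11a1* and *Cyp17a1* had one in all 8. The longest one of *Cyp17a1*, which spans 5810 bases, was found only in GOAT KO 1139, 1140 and 1146, and those of the other libraries spanned at most 1427 bases. Assembly did not follow the level throughout, since *Hsd3b1*, the most abundant, was assembled in 4 libraries and *Hsd17b1* in 6, without WT 1120 and GOAT KO 1139. No annotated transcript of *Srd5a1* or *Akr1c18* was assembled in any library.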

How the data were processed

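Counts per gene symbol were deposited by the authors as whole numbers without normalization, together with counts of reads on splice junctions and assembled transcripts with a constant score, which was not used as a value. Per the labels, reads of 50 bases were aligned to GRCm38 with TopHat2 2.0.14 and assembled with StringTie 1.0.4, and the counting tool and its use of strand are not given in the sources used here. Counts were analysed with edgeR 4.0.16 (TMM, filterByExpr with 10 counts, quasi-likelihood test over all genes, Benjamini-Hochberg adjustment) in R 4.3.3 and with DESeq2 1.42.0 as an alternative. SEs were taken as the fold change over the root of F. The log2 CPM used a prior count of 2. The fit was tested on simulated data. Exon lengths and positions came from GENCODE M21 and promoter windows from RefSeq, which held 6 of the 9 genes and no entry for *Star*, *Cyp17a1* or *Hsd17b1*. Correlations were tested by exact permutation of pairings. Genes named are the 9, *Mboat4*, the most alike genes, called genes of the lists and defining markers. *Fdx1*, *Fdxr*, *Por*, *Akr1c14*, *Nr5a1*, *Lhcgr*, *Hsd3b6* and *Akr1cl* were named after their values were seen. The genes, lists and the 6 libraries were chosen with earlier results of these data known. No library pair of 1 group matched within sampling noise (chi-square per gene 4.0 or more). Separate litters or extractions are not stated beyond 1 animal per library, and the depth of 16147216 to 19481798 counts limits *Akr1c18* and the junction reads.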

Additional observations from a re-analysis of the deposited data

Results flagged for a closer look

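In groups of 4 libraries, 1 library was marked where its gap to the nearest other passed Dixon's limit as a share of the range of the group. Of 20 groups examined (the 9 genes and the difference between theca and granulosa pairs, each in WT and GOAT KO), 6 were marked, and chance marks about 1 in 20. WT 1120 was marked for *Star* with 31.9 CPM against 12.4 to 14.6 in the other WT libraries. It was marked for *Cyp17a1* with 355 CPM against 50.2 to 58.7, for *Cyp19a1* with 65.0 CPM against 5.06 to 9.70, and for *Srd5a1* with 45.9 CPM against 27.9 to 30.8. GOAT KO 1139 was marked for *Star* with 233.5 CPM against 8.14 to 20.5 in the other GOAT KO libraries and, only just past the limit, for *Cyp17a1* with 600.8 CPM against 42.4 to 138. These marks were made on CPM. On log2 CPM, a scale added after seeing the data, 2 of 18 groups of the 9 genes were past the limit, both through WT 1120, for *Star* and *Cyp17a1*. The genes share their libraries, so these marks are not independent of each other.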

How the results depend on the processing

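Of 126 recomputed log2 fold changes of the 9 genes, 96 kept their direction and their status under the call rule (p and fold change together). Of the rest, 15 newly met the rule, 5 no longer met it and 10 turned direction. The 96 include *Star* in DESeq2 with all 8 libraries, at 1.89, where DESeq2 gave no p and the gene was counted as not called. Without WT 1120 and GOAT KO 1139, *Star* turned to -0.10 (-0.10 with DESeq2 and -0.10 with RLE size factors, both added after seeing the data), and the *Star* and *Hsd17b1* correlation turned to -0.44. With 1 library left out at a time, log2 fold changes ranged from -0.52 to 2.30 for *Star*, from -0.75 to 1.91 for *Cyp17a1*, from -0.21 to 1.82 for *Cyp19a1*, from -0.16 to 0.29 for *Srd5a1*, from 0.22 to 0.44 for *Hsd17b1*, from 0.12 to 0.57 for *Cyp11a1*, from 0.09 to 0.23 for *Hsd3b1*, from -0.25 to -0.05 for *Hsd17b7* and from 0.15 to 0.79 for *Akr1c18*. The number of the 9 genes called was 1, 2 with no filter on low counts, 4 without WT 1120 and GOAT KO 1139 (3 with DESeq2 and 4 with RLE size factors), and 0 to 4 with 1 library left out. Over all genes, calls at a fold change over 0.5 numbered 278, 691 with no filter, and 231 to 437 with 1 library left out. Those over 0.3 numbered 473, 918 with no filter, 793 without WT 1120 and GOAT KO 1139 (792 with RLE size factors), and 382 to 866 with 1 left out. Those at an adjusted p under 0.05 numbered 4, 7 with no filter, 13 with DESeq2, 20 without WT 1120 and GOAT KO 1139 (76 with DESeq2 and 20 with RLE size factors), and 3 to 14 with 1 left out. The cause was not tested. The difference between theca and granulosa pairs, -0.05, ranged from -0.78 without GOAT KO 1139, where the SD of GOAT KO was 0.66 in place of 1.55, to 0.44 without GOAT KO 1141. No paired analysis was possible because the animal numbers of the groups are not shared. Depth limits *Akr1c18*, at 15 to 56 counts per library, and the first exons of *Cyp19a1*. Libraries shared 1 sequencing lane, and no batch within groups is given.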
